A study of Mus musculus with 6 samples.

Results

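Brush border peptidases are enzymes held in the apical membrane of enterocytes, where they cut the peptides that gastric and pancreatic proteases leave into amino acids and short peptides that the cell can take up. They were followed here through the RNAs of 8 genes, chosen by symbol among the 32285 features of the count tables, each of which held all 8. The meprin subunits are encoded by Mep1a (alpha) and Mep1b (beta), metalloendopeptidases that cleave within peptides. Anpep (aminopeptidase N) removes neutral residues from the amino terminus, Enpep (aminopeptidase A) removes acidic residues there, and Xpnpep2 (membrane aminopeptidase P) removes the residue in front of a proline. Dpp4 releases dipeptides whose second residue is proline or alanine, Ace (angiotensin-converting enzyme) releases dipeptides from the carboxyl terminus, and Mme (neprilysin) is a further metalloendopeptidase. Enterocytes are born in the crypt, move up the villus as they mature and are shed at its tip, and the RNAs of digestive enzymes and transporters are known to differ along that path.

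The data were 6 droplet-based single-cell RNA libraries of small intestinal epithelium, each from 1 mouse of C57BL/6 background aged 6 to 8 wk. In 3 of these mice, named IE-HuR-/-, floxed HuR alleles (HuR fl/fl) had been combined with villin-Cre, which acts in the intestinal epithelium from crypt to villus and leaves HuR in other cells of the mucosa. The 3 controls were HuR fl/fl littermates without Cre, which the labels call wild-type. The methods state that food was withheld for 24 h, whereas the labels state normal feeding, and villus-rich and crypt-rich fractions had been pooled for each animal.

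The libraries held 60706 barcodes and 428980031 unique molecular identifiers (UMIs, 1 per captured RNA molecule), with totals between 59518012 and 91818560. Pairs of libraries shared between 22 and 44 barcode sequences. Barcodes with at least 200 genes (60431) were assigned to classes by the share of their UMIs on marker lists, which left 47919 enterocytes (6557 to 12650 per library), 977 goblet, 219 enteroendocrine, 140 tuft, 118 progenitor and 63 Paneth cells by marker gate. The enterocyte gate used a list of 10 enterocyte markers, so their presence in the enterocyte sums was fixed by the gate. Of these 10 markers, 2 were higher and 5 lower in every library labelled IE-HuR-/- than in every control. Elavl1, which encodes HuR, had 28.7, 31.6 and 28.9 CPM (UMIs scaled to a common class total of 1000000 in each library) in enterocytes of the control libraries and 29.8, 29.8 and 30.6 CPM in those labelled IE-HuR-/-. Its fitted log2 difference was 0.16 (SE 0.0493, edgeR adjusted p = 0.00592), so that Elavl1 RNA was not lower under the knockout label. The tables do not say where in the gene the UMIs lie, and each direction given below rests on the labels.

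HuR is an RNA-binding protein known to bind AU-rich elements in 3′ untranslated regions, whose core letters are ATTTA in the DNA alphabet, so the members' 3′ untranslated regions were searched for these letters on the sense strand. The longest 3′ untranslated region of each gene in GENCODE M21 (build GRCm38) was used. Mep1a (629 bases) and Mep1b (141 bases) held no ATTTA. Anpep held 1 in 421 bases, Ace 1 in 930, Xpnpep2 2 in 1052, Enpep 6 in 1104, Dpp4 10 in 2545 and Mme 12 in 5698 bases. Of the 12052 RNAs tested in enterocytes that had a 3′ untranslated region, 69.1% held ATTTA, with a median of 1.29 per 1000 bases. Enpep, with 5.43 per 1000 bases, lay above 95.1% of them and Dpp4, with 3.93, above 88.9%. The longer run TTATTTATT, which contains the core, was in none of the 8 members and in 7.86% of all. The 30-base windows below are shown because they contrast members with closely spaced cores (Enpep and Mme, 2 each) and with an isolated core (Ace and Anpep), with ATTTA in capitals.

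Enpep: agaaggcggATTTAaATTTAactttgccct
Mme: ctatATTTAattattaactacATTTAtgac
Ace: ttttatctacatATTTAtgtagtaaatttg
Anpep: ctctgaagctagATTTActggacaaagggc

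These windows lie at chr3:129269335-129269364 (minus strand), chr3:63381045-63381074 (plus strand), chr11:105989874-105989903 (plus strand) and chr7:79821953-79821982 (minus strand) of GRCm38, each in the annotated 3′ untranslated region. A match of letters is a description of the sequence and not a binding site.

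Promoter windows from 250 bases before to 50 bases after an annotated start were held by the RefSeq table (GRCm38.p6) for 7 of the 8 members. They were searched on both strands for letters of sites bound by enterocyte transcription factors. These were GTTAAT and the longer core for HNF1, AAAGTCCA and the overlapping CAAAGTCCA for HNF4, TTTATGG and the overlapping TTTATG for CDX factors, AGATAA for factors of the GATA family, and TATAAA for the TATA box. No member's window held GTTAAT, AAAGTCCA or the longer HNF1 core, which were in 7.10%, 1.248% and 0.122% of all 32851 windows, and CAAAGTCCA was in 0.475% of all. The window of Mep1a held TTTATGG, which was in 2.75% of all windows (TTTATG in 11.8%), and that of Dpp4 held AGATAA, which was in 11.2%. The letters TATAAA were in the windows of Dpp4, Enpep and Ace and in 13.6% of all. The windows with any match are printed on the strand of the gene, with the matched letters (or their reverse complement, where the match is on the other strand) in capitals, because they are the members' windows in which these letters occur.

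Mep1a: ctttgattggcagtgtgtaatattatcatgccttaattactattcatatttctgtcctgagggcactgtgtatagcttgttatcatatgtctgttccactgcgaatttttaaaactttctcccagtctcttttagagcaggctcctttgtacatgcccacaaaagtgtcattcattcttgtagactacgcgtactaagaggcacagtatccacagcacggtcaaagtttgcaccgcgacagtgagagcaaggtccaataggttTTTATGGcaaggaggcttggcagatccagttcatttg
Dpp4: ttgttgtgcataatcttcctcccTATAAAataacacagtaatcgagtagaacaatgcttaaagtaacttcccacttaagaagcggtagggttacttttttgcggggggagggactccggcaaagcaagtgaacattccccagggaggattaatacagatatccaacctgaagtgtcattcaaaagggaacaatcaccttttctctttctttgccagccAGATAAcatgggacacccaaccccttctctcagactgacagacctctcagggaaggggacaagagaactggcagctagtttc
Enpep: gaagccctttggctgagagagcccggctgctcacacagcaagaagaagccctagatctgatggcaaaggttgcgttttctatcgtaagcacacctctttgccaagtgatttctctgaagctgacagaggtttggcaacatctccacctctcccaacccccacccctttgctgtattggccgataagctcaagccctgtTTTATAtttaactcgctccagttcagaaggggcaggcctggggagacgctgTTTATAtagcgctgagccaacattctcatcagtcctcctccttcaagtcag
Ace: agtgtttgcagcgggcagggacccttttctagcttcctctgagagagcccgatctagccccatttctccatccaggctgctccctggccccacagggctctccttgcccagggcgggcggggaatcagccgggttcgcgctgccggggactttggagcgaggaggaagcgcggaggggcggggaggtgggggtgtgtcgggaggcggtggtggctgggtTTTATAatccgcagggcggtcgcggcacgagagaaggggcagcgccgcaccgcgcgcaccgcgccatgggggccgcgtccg

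Their positions are chr17:43502724-43503023 (minus strand) for Mep1a, chr2:62412182-62412481 (minus strand) for Dpp4, chr3:129332700-129332999 (minus strand) for Enpep and chr11:105967698-105967997 (plus strand) for Ace. No match says only that these letters are absent from the window.

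To ask whether the peptidase RNAs of enterocytes differed between the labels, UMIs were summed per library over the gated enterocytes and compared with edgeR. The 8 RNAs did not move together. Mep1b, Anpep, Dpp4 and Xpnpep2 rose in the libraries labelled IE-HuR-/-, Ace and Mme fell, and Mep1a and Enpep were not called, although all 8 were called when the position bins described below counted equally (Mep1a 0.11, adjusted p = 0.0267). Of all 13287 RNAs tested, 56.6% were called, 26.5% higher and 30.2% lower, so that 6 of 8 members called is near the background of this comparison.

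**Figure D1:**
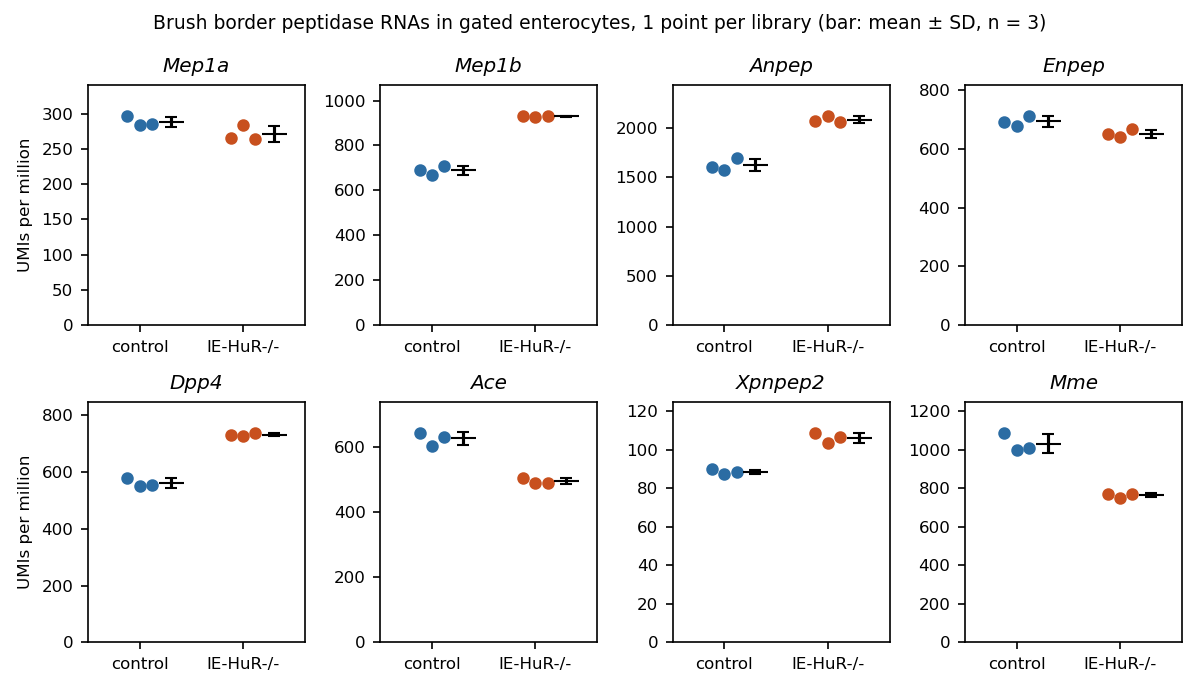
Level of each member RNA in gated enterocytes, in CPM of the enterocyte total (vertical axis, from 0), with 1 point per library and the mean ± SD of 3 libraries beside the points. The points of the labels are apart for Mep1b, Anpep, Dpp4 and Xpnpep2, which are higher under the knockout label, and for Enpep, Ace and Mme, which are lower on this unscaled axis, while those of Mep1a overlap.

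Among the endopeptidases, the meprin subunits differed from each other. Mep1a RNA stood at 297, 284 and 286 CPM in the control libraries and at 266, 285 and 264 CPM in those labelled IE-HuR-/-, with 1 library of the latter inside the control range. Mep1b (chr18:21072344-21100199 in GRCm38.p6) had 689, 670 and 708 CPM in the control libraries and 929, 928 and 932 CPM in the others, and the groups did not overlap. After TMM scaling, which sets the libraries on a common footing over all RNAs, the log2 difference was 0.06 (SE 0.0452, edgeR adjusted p = 0.293) for Mep1a and 0.58 (SE 0.0463, adjusted p = 9.56e-14) for Mep1b. Without TMM scaling, which lowers the median of all RNAs from -0.03 to -0.17, Mep1a was at -0.09 (adjusted p = 0.0596) and Mep1b still higher at 0.43. Mme had 1086, 998 and 1009 CPM in the control libraries and 769, 750.5 and 768 CPM in those labelled IE-HuR-/-. Every library with the knockout label lay below every control, and the log2 difference of Mme was -0.29 (SE 0.0471, adjusted p = 1.61e-06).

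The aminopeptidases were higher or not called. Anpep had 1603, 1579 and 1698 CPM in the control libraries and 2071, 2123 and 2063 CPM in those labelled IE-HuR-/-, with no overlap and a log2 difference of 0.50 (SE 0.0493, adjusted p = 2.21e-11). Xpnpep2, at 89.7, 87.2 and 88.3 CPM against 108.5, 103 and 107 CPM, was likewise higher in every library with the knockout label (log2 difference 0.41, SE 0.0444, adjusted p = 2.88e-10). Enpep had 692, 676 and 712 CPM in the control libraries against 649.6, 639 and 666 CPM. On this unscaled level all 3 libraries labelled IE-HuR-/- lay below the controls, while the TMM-scaled log2 difference of Enpep was 0.05 (SE 0.0458, adjusted p = 0.32). Enpep was called lower without TMM scaling, at -0.09 (adjusted p = 0.0471), and higher when the position bins described below counted equally, at 0.11 (adjusted p = 0.0294), so that no direction is given for it.

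The dipeptide-releasing enzymes moved in opposite directions. Dpp4 had 581, 549.6 and 556 CPM in the control libraries and 732, 726 and 737 CPM in those labelled IE-HuR-/-, a log2 difference of 0.53 (SE 0.0453, adjusted p = 6.91e-13). For Ace the control libraries held 644, 606 and 633 CPM and the others 506, 491 and 490.5 CPM, a log2 difference of -0.19 (SE 0.046, adjusted p = 4.09e-04). Neither gene had overlapping groups. Summed over the 8 genes, the peptidase RNAs made up 0.545% to 0.569% of enterocyte UMIs in the control libraries and 0.603% to 0.6045% in those labelled IE-HuR-/-, a sum given without a test. The calls of the 6 members held with DESeq2, without TMM scaling and without each library in turn.

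Genes of the same digestive steps were read from lists made with earlier results known. Of 15 cytosolic peptidases, which finish the breakdown of peptides inside the cell, 11 rose and 0 fell, with a median log2 difference of 0.25 against -0.03 over all RNAs tested. The largest were Xpnpep1 (cytosolic aminopeptidase P, 0.76, adjusted p = 4.06e-18) and Blmh (bleomycin hydrolase, 0.55, adjusted p = 1.49e-11). Of 11 genes of the brush border scaffold, 9 rose and 0 fell (median 0.31), among them Vil1 (villin, 0.50, adjusted p = 2.29e-11) and Espn (espin, 0.49, adjusted p = 4.31e-12). Other brush border peptidases were mixed, with 1 of the 6 tested (of 7) higher, Dpep1 (a dipeptidase, 0.39, adjusted p = 2.26e-09), and 2 lower, Tmprss15 (enteropeptidase, -0.59, adjusted p = 1.16e-11) and Cpm (carboxypeptidase M, -0.87, adjusted p = 4.23e-12). Of 11 peptide and amino acid carriers, 5 rose and 4 fell, with Slc1a1 (a glutamate and aspartate carrier) at 0.72 (adjusted p = 3.82e-11) and Slc6a20a (a carrier of proline and other imino acids) at -1.45 (adjusted p = 1.65e-26). The list counts rest on TMM scaling, without which 25.5% of all calls were higher, against 46.7% with it. Slc6a19, counted as risen (0.18, adjusted p = 0.000979), overlapped before scaling, at 620, 645 and 649 CPM in the control libraries against 660, 641 and 658 CPM.

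Of 9 transcription factors of the enterocyte, 1 rose (Hnf4a, 0.33, adjusted p = 4.68e-08) and 3 fell, the larger falls being Cdx2 (-0.58, adjusted p = 5.36e-14) and Gata5 (-0.19, adjusted p = 0.00128). Markers of intestinal region moved with the label as well. The ileal bile acid genes Fabp6 (2.25, adjusted p = 1.3e-31) and Slc10a2 (1.36, adjusted p = 8.74e-07) were higher and Lct (lactase), which is high in the jejunum, was lower (-0.83, adjusted p = 2.96e-18) in the libraries labelled IE-HuR-/-. Fabp1, not grouped here with the ileal genes, was higher (0.35, adjusted p = 6.01e-07), and Gata4 was not called (0.01, adjusted p = 0.82). No single direction along the intestine is read from the 5 regional markers. The summed lower-villus markers stood at 4285 to 4948 CPM in the control libraries and at 15220 to 15750 CPM in the others. Of these 9 markers, 5 were higher and 3 lower in every library labelled IE-HuR-/-, so the sum does not stand for each marker. Of 8 villus tip markers, 5 were higher and 1 lower by the same measure. Their sums overlapped, at 18980 to 20920 CPM in the control libraries and 17680 to 19090 CPM in the others. The part of region and of cell maturity in the peptidase differences was not tested.

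To place the peptidases along the villus, the 20284 enterocytes with at least 2000 UMIs were ranked within each library by 8 villus tip markers minus 9 lower-villus markers, none of them a member, and cut into 5 bins of equal size, from bin 1 (low) to bin 5 (tip). Of the peptidase RNAs, Anpep, Enpep and Xpnpep2 were called lower at the tip by the full score and under every alternative run. Mep1b, Dpp4 and Ace were lower by the full score, but with the tip markers alone Mep1b was at 0.01 (adjusted p = 0.916) and Dpp4 (0.36, adjusted p = 2.16e-04) and Ace (0.33, adjusted p = 0.00972) were called higher. Of all 11390 RNAs tested between bin 5 and bin 1, with the library as a block, 79.5% were called, 37.4% higher and 42.1% lower at the tip. Of the 8 members, 6 were called lower and 1 higher, with a median log2 difference of -0.65 against -0.09 over all RNAs tested.

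**Figure D2:**
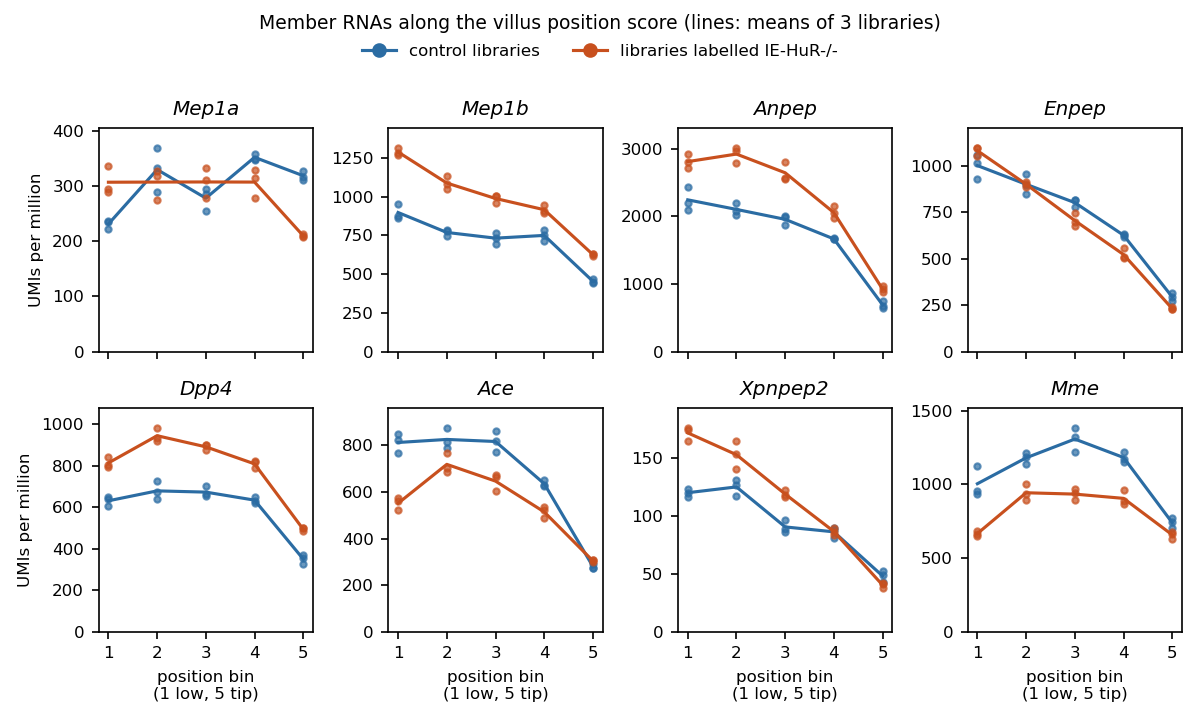
Level of each member RNA in CPM (vertical axis, from 0) over the 5 bins of villus position (horizontal axis, 1 low to 5 tip), with points for libraries and lines for the means of 3 libraries per label. Anpep, Enpep, Xpnpep2, Mep1b, Dpp4 and Ace are lower in bin 5 than in bin 1 under both labels. Ace under the knockout label is highest in bin 2. Mep1a in the control libraries is higher in bin 5 than in bin 1.

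The aminopeptidases declined most. Enpep had 1019, 932 and 1057 CPM in bin 1 of the control libraries and 294.5, 316 and 273 CPM in bin 5. In the libraries labelled IE-HuR-/-, Enpep went from 1097, 1097 and 1055 CPM to 229, 227 and 239 CPM, and over all 6 libraries its log2 difference was -1.54 (SE 0.0859, adjusted p = 3.65e-08). No library had more Enpep in bin 5 than in bin 1. Xpnpep2 fell by 1.245 on the log2 scale (SE 0.147, adjusted p = 1.25e-04) and Anpep fell by 1.19 (SE 0.0643, adjusted p = 8.08e-09). Anpep levels ran from 2093 to 2434 CPM in bin 1 of the control libraries and from 649 to 754 CPM in bin 5.

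The other peptidases had smaller differences along the villus. Ace fell by 0.74 (SE 0.146, adjusted p = 0.00225), Mep1b fell by 0.55 (SE 0.0447, adjusted p = 3.11e-07) and Dpp4 fell by 0.33 (SE 0.053, adjusted p = 1.3e-04) on the log2 scale. Dpp4 was flat over bins 1 to 4 of the control libraries, with means between 631 and 678 CPM, and stood at 349.7 ± 21.8 CPM (SD, n = 3) in bin 5. Mme was called higher in bin 5 than in bin 1 (0.23, SE 0.0885, adjusted p = 0.0361), but it turned to -0.23 (adjusted p = 0.0211) without TMM scaling, which lowers the median of all RNAs from -0.09 to -0.55. Before scaling, Mme was highest between these bins. Its means in bins 1, 3 and 5 were 1004, 1306 and 739 CPM under the control label and 665.5, 933 and 657 CPM under the knockout label. Without TMM scaling Mep1a turned from 0.42 (SE 0.203, adjusted p = 0.1) to -0.04 (adjusted p = 0.874), whereas it was called higher with DESeq2 (0.46, adjusted p = 0.00369), with the stricter barcode filter (0.61, adjusted p = 0.0207), with the tip markers alone (0.72, adjusted p = 4.86e-04), with the Reg genes left out of the lower-villus markers (0.77, adjusted p = 0.00992) and without IE-HuR-/- replicate 2 (0.56) or 3 (0.51).

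Depth and mitochondrial RNA moved with position. The median of a cell was between 7549 and 10966.5 UMIs in bin 1 and between 12731 and 20084 in bin 5, and the median mitochondrial share was between 1.45% and 8.47% in bin 1 and between 15.8% and 18.2% in bin 5. With mitochondrially encoded RNAs left out of the sums, the 6 lower members stayed called lower, and Mme was at 0.21 (adjusted p = 0.0518). Among the related genes, 9 of 11 brush border scaffold RNAs were higher at the tip and 1 lower, with Eps8 (an actin-capping protein of microvilli) at 1.69 (adjusted p = 1.54e-11). Of the cytosolic peptidases 4 of 15 were higher and 10 lower, with Dnpep (aspartyl aminopeptidase) at 2.71 (adjusted p = 8.86e-12) and Lta4h at -1.07 (adjusted p = 5.71e-09). Of 10 carriers tested, 4 were higher and 6 lower, with Slc15a1 (the peptide carrier PEPT1) at 0.88 (adjusted p = 2.77e-09) and Slc7a8 at -2.90 (adjusted p = 8.24e-12). Of the other brush border peptidases, 3 of 6 were higher and 1 lower, with Tmprss15 at 2.37 (adjusted p = 1.32e-05) and Dpep1 at -0.36 (adjusted p = 4.33e-05). Transcription factors split 3 to 5 of 9, with Hnf4a at 1.79 (adjusted p = 3.93e-10) and Cdx2 at -1.54 (adjusted p = 1.14e-04), and regional markers 1 to 4 of 5, with Gata4 at 0.71 (adjusted p = 1.21e-07) and Fabp6 at -4.09 (adjusted p = 1.79e-07).

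Whether the position difference itself differed between the labels was tested as an interaction of label and bin (bin 5 against bin 1). Bins were ranked within each library, so a bin does not mark the same position score under both labels. The median score in bin 1 was -0.31, -0.24 and -0.48 in the control libraries and -0.97, -0.98 and -1.02 in the others. In bin 5 it was 2.23, 2.17 and 2.30 against 2.15, 2.19 and 2.15. The part of this shift in the label differences given for each bin was not tested. Of the 11390 RNAs, 23% were called, 8.98% with a higher and 14% with a lower tip-to-base difference under the knockout label. Of the 8 members, 6 were called. Mep1a, Xpnpep2 and Enpep had a lower tip-to-base difference in the libraries labelled IE-HuR-/-, Ace, Mme and Dpp4 a higher one, and Mep1b and Anpep were not called.

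**Figure D3:**
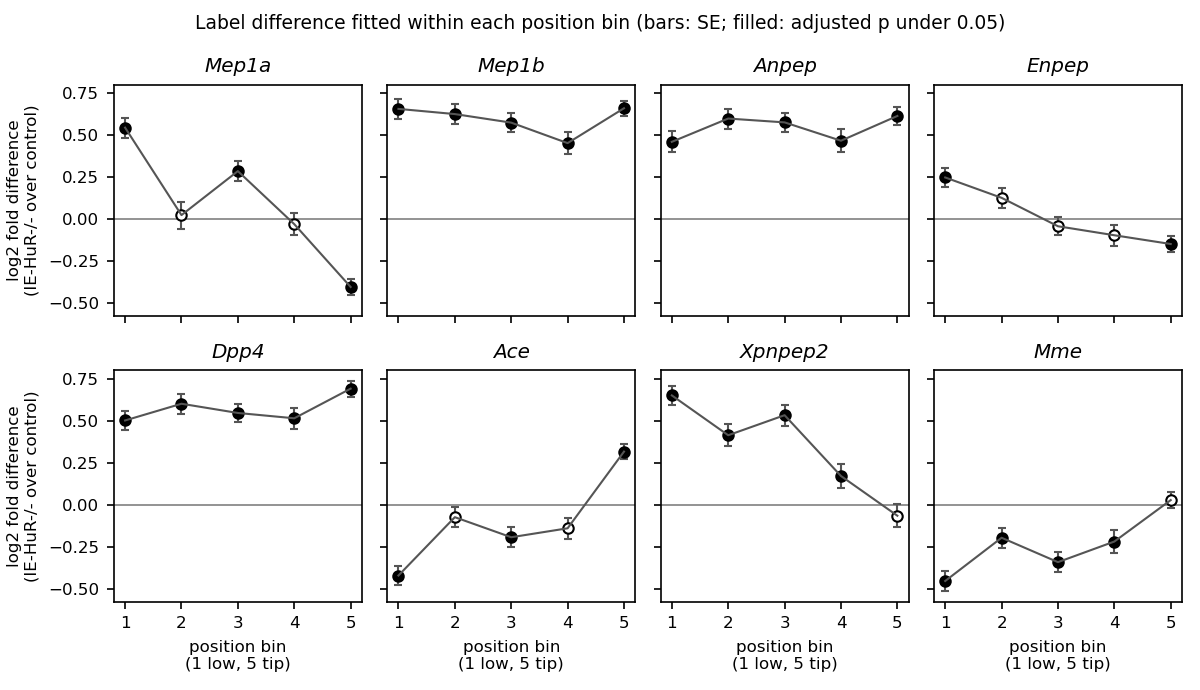
Log2 difference of each member RNA between the labels (vertical axis, libraries labelled IE-HuR-/- over control) fitted by edgeR in each of the 5 position bins alone (horizontal axis, 1 low to 5 tip), with bars for SE and filled points for adjusted p under 0.05. Mep1a changes from 0.55 in bin 1 to -0.41 in bin 5 and Ace from -0.42 to 0.32, while Mep1b, Anpep and Dpp4 are above 0 in every bin. Bins were ranked within each library, and bin 1 had lower position scores under the knockout label.

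Mep1a had the largest of these differences among the members. In bin 1 it had 222, 234 and 237 CPM in the control libraries and 289, 337 and 294 CPM in those labelled IE-HuR-/-. In bin 5 the order was turned, with 316, 327 and 311 CPM in the control libraries and 212, 209 and 207.5 CPM in the others. The groups did not overlap in either bin, on opposite sides, and the interaction was -0.96 (SE 0.0667, edgeR adjusted p = 2.78e-12). Fitted for each label alone, Mep1a was higher at the tip in the control libraries (0.90, SE 0.0456, adjusted p = 1.38e-24) and at 0.01 (adjusted p = 0.838) in those labelled IE-HuR-/-. Both fitted values depend on TMM scaling. Before scaling, the log2 ratio of bin 5 to bin 1 was 0.51, 0.48 and 0.40 in the control libraries. It was -0.45, -0.69 and -0.50 in those labelled IE-HuR-/-, where bin 5 was the lowest bin in every library. Within bin 1 alone the label difference of Mep1a was 0.55 (SE 0.0592, adjusted p = 2.23e-09) and within bin 5 alone -0.41 (SE 0.0461, adjusted p = 4.46e-09).

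Ace turned the other way. In bin 1 the control libraries had 823, 766 and 849 CPM of Ace and those labelled IE-HuR-/- 573, 559.7 and 522 CPM, whereas in bin 5 they had 275, 292.5 and 272.5 CPM against 297, 306 and 309 CPM. Again the groups were apart in both bins, with the knockout label below the controls in bin 1 and above them in bin 5 (interaction 0.73, SE 0.0665, adjusted p = 1.29e-09). From bin 1 to bin 2 the mean of Ace went from 551.5 to 718.8 CPM under the knockout label. Under the control label it went from 812.8 to 825.9 CPM, so the label difference was smaller in bin 2 than in bin 1. Mme narrowed in the same direction (0.47, SE 0.0637, adjusted p = 1.14e-06), from a label difference of -0.46 (adjusted p = 1.14e-07) in bin 1 to 0.03 (adjusted p = 0.638) in bin 5. Mme levels were 1122, 932 and 957 CPM against 686, 662 and 649 CPM in bin 1, and 768, 742 and 706 CPM against 630.1, 662 and 678 CPM in bin 5, where every library with the knockout label was still lower before TMM scaling.

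Xpnpep2 and Enpep declined more steeply under the knockout label. Xpnpep2 had 116, 119.8 and 123 CPM in bin 1 of the control libraries against 175, 165 and 174 CPM, and 48.8, 52.1 and 43.1 CPM in bin 5 against 40.9, 37.8 and 41.7 CPM. It was above the controls in bin 1 and below them in bin 5 (interaction -0.73, SE 0.0756, adjusted p = 3.5e-09). The TMM-scaled label difference of Xpnpep2 was 0.65 (adjusted p = 2.32e-12) in bin 1 and -0.07 (adjusted p = 0.44) in bin 5. The interaction of Enpep was -0.41 (SE 0.0793, adjusted p = 0.00112), with label differences of 0.25 (adjusted p = 6.39e-04) in bin 1 and -0.15 (adjusted p = 0.0126) in bin 5. The calls of Mep1a, Ace, Mme, Xpnpep2 and Enpep held in direction and significance under all 16 alternatives, among them no TMM scaling, tip markers alone and bin 4 in place of bin 5.

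Mep1b, Anpep and Dpp4 were higher under the knockout label in each of the 5 bins. The label difference of Mep1b was 0.66 in bin 1 and 0.66 in bin 5, and its interaction was -0.01 (SE 0.0604, adjusted p = 0.925). For Anpep the interaction was 0.14 (SE 0.105, adjusted p = 0.408) and was called under 6 of the alternatives. For Dpp4 it was 0.18 (SE 0.0627, adjusted p = 0.0378), and the call was lost under 7 of the 16 alternatives. Among these were the fits without TMM scaling (0.13, adjusted p = 0.103), without control replicate 1 (0.20, adjusted p = 0.062), without control replicate 3 (0.13, adjusted p = 0.187) and without IE-HuR-/- replicate 1 (0.16, adjusted p = 0.137).

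Meprin A is built from alpha and beta subunits, so the UMIs of the 2 subunit RNAs were also set against each other within each library. Over all enterocytes Mep1a UMIs were 0.431, 0.423 and 0.403 times those of Mep1b in the control libraries and 0.287, 0.307 and 0.2835 times in those labelled IE-HuR-/-. In bin 1 the ratios were close, between 0.249 and 0.271 in the control libraries and between 0.226 and 0.256 in the others. In bin 5 they were 0.699, 0.698 and 0.705 against 0.342, 0.331 and 0.3302. The ratio does not depend on TMM scaling, is not corrected for RNA length and was not tested.

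**Figure D4:**
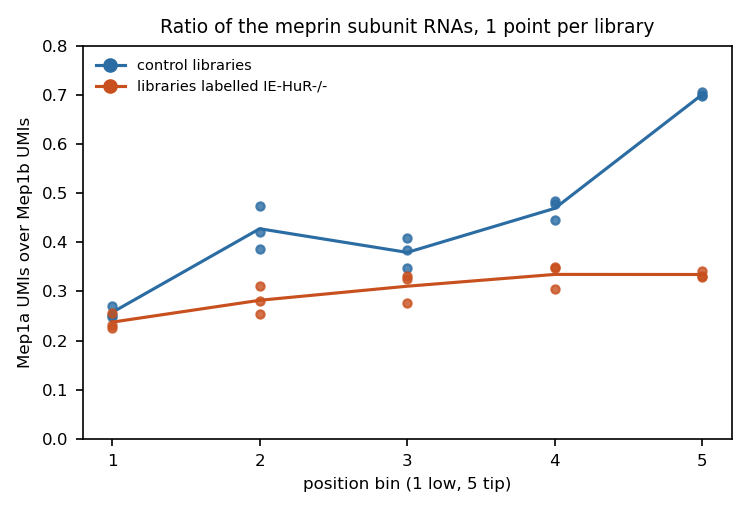
Mep1a UMIs divided by Mep1b UMIs (vertical axis, from 0) in each position bin (horizontal axis, 1 low to 5 tip), with 1 point per library and lines for the means of 3 libraries per label. The labels overlap in bin 1 and are apart in bin 5, where the control libraries are between 0.698 and 0.705 and those labelled IE-HuR-/- between 0.3302 and 0.342.

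The related lists were read in the same fit. Of the brush border scaffold 0 of 11 were higher and 1 lower, Myo1a (-0.17, adjusted p = 0.0235). Of the other brush border peptidases 1 of 6 was higher, Cpm (0.62, adjusted p = 0.0378), and 2 lower, Naaladl1 (-1.22, adjusted p = 3.57e-11) and Dpep1 (-0.19, adjusted p = 0.0244). Of the carriers 0 of 10 were higher and 4 lower, with Slc6a19 (the neutral amino acid carrier B0AT1) at -0.76 (adjusted p = 5.88e-12), and of the cytosolic peptidases 2 of 15 were higher and 6 lower, with Pgpep1 at -0.48 (adjusted p = 7.16e-05). Of the transcription factors 1 of 9 was higher and 4 lower, with Gata5 at -1.07 (adjusted p = 1.22e-09) and Cdx2 at -0.86 (adjusted p = 9.35e-10), and of the regional markers 1 of 5 was higher, Fabp1 (0.73, adjusted p = 5.09e-07), and 1 lower, Slc10a2 (-1.82, adjusted p = 0.0176).

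Outside the enterocytes the peptidase UMIs were read against those of the 10 enterocyte markers in the same class, each as a percent of its enterocyte level in the same library. Free RNA, doublets and cells gated to the wrong class could each bring enterocyte UMIs into another class, and their parts were not tested. In T or NK cells by gate the median of the 10 markers was 8.66% to 23.2% over libraries, with 12.25% as the median library. The members' medians over libraries were all above that, between 12.8% (Mep1a) and 18.05% (Dpp4). Dpp4 is also known as CD26, a surface peptidase of T cells, so that this class is no enzyme-free baseline for it. Dpp4 and Mme were each above the marker median there in 6 of 6 libraries and above all 10 markers in 4 of 6. Enpep and Mep1a were also above the marker median in 6 of 6, and above all 10 markers in 3 and 1 of 6. The remaining members were above the marker median in 4 or 5 of 6 libraries. In fibroblasts by gate 6 members had medians between 4.90% and 8.95%, near the 6.39% of the enterocyte markers. Dpp4 (median 79.8%, lowest library 66.4%) and Xpnpep2 (median 99.98%, lowest 62.8%) stood apart and were above all 10 enterocyte markers in 6 of 6 libraries. Dpp4 had 520.5, 659 and 477 CPM in fibroblasts of the control libraries and 539.7, 482 and 526 CPM in the others, from 6 to 43 cells per library. Xpnpep2 UMIs there numbered 24, 33 and 11 in the control libraries and 5, 5 and 7 in the others.

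**Figure D5:**
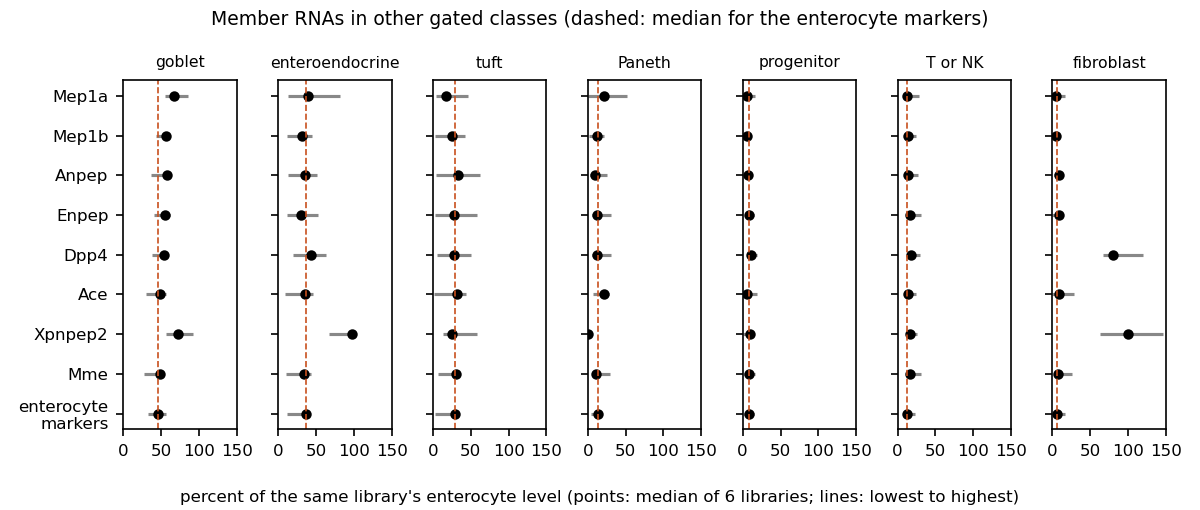
Level of each member RNA in other gated classes as a percent of its enterocyte level in the same library (horizontal axis), with points for the median and lines from the lowest to the highest of 6 libraries, and the enterocyte markers in the bottom row and as a dashed line. Most members lie near the dashed line, whereas Dpp4 and Xpnpep2 in fibroblasts and Xpnpep2 in enteroendocrine cells lie far to the right of it.

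In goblet cells the enterocyte markers had a median of 45.4% (range 32.3% to 57.0%) of the enterocyte level. This marker median was 57.0%, 55.7% and 48.2% in the control libraries and 38.3%, 42.7% and 32.3% in those labelled IE-HuR-/-, without overlap. Mep1a (median 67.35%) and Xpnpep2 (72.3%) were above all 10 markers in 5 of 6 libraries, while Anpep, Enpep, Dpp4, Ace, Mme and Mep1b had medians between 48.7% and 58.2%. Doubled marker cuts lowered the goblet levels of all 8 members, among them Mep1a from 196 to 121 CPM, Mep1b from 433 to 258 CPM, Anpep from 955 to 611 CPM and Dpp4 from 322 to 199.9 CPM. The ranges over 6 libraries of goblet and enterocyte levels did not overlap for any of the 8 members. In enteroendocrine cells the enterocyte markers had a median of 36.5%, 7 members had medians between 30.3% and 43.1%, and Xpnpep2 had 97.3%, above the marker median in 6 of 6 libraries but above all 10 markers in 2 of 6, at 85.0 ± 7.80 CPM under the control label and 94.4 ± 20.6 CPM under the knockout label (SD of 3 libraries). In the order of mean Xpnpep2 levels, fibroblasts (99.0 CPM), enterocytes (97.3), enteroendocrine cells (89.7) and goblet cells (69.2) each overlapped the next in range.

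Tuft, progenitor and Paneth sums were shallow, and doubled marker cuts lowered the tuft levels, for Anpep from 613 to 162 CPM, for Ace from 164 to 27.5 CPM, for Mme from 249.5 to 46.5 CPM and for Mep1a from 60.2 to 17.2 CPM. Members had medians between 17.3% and 32.9% of the enterocyte level in tuft cells against 28.7% for the markers, between 5.27% and 11.7% in progenitors against 8.48%, and between 0.0% (Xpnpep2) and 21.15% in Paneth cells against 13.8%. Xpnpep2 had 1 UMI in 629691 Paneth UMIs, 1.59 CPM with an exact 95% Poisson interval of 0.0402 to 8.85 CPM that covers counting error only. Dpp4 in progenitors (median 11.7%) was above the marker median in 6 of 6 libraries but above all 10 markers in 1 of 6. Ace in Paneth cells (median 20.9%) was above the marker median in 6 of 6 libraries and above all 10 markers in 2 of 6. It rested on 57 Ace UMIs over the 6 libraries. Doubled marker cuts left 13 of them and lowered the mean Ace level in Paneth cells from 106.5 to 57.4 CPM.

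Label differences were fitted in each of these classes as well. In goblet cells 25.1% of 8735 RNAs were called, 13.9% higher and 11.2% lower, and 4 of 8 members were called. Mep1b was higher (0.39, SE 0.102, adjusted p = 0.00661), and Ace (-0.73, SE 0.13, adjusted p = 6.8e-04), Mme (-0.71, SE 0.194, adjusted p = 0.0342) and Mep1a (-0.32, SE 0.107, adjusted p = 0.0305) were lower. Ace had between 319 and 360 CPM in goblet cells of the control libraries and between 147 and 236 CPM in the others, and the groups did not overlap. Without control replicate 2, control replicate 3 or IE-HuR-/- replicate 1 only 2 members were called, Mep1a (-0.27, -0.27 and -0.24) and Mme (-0.70, -0.78 and -0.66) losing the call. With the marker cuts of every class doubled the goblet differences were -0.23 for Mep1b and -0.98 for Mep1a, and Ace (adjusted p = 0.0755) and Mme (adjusted p = 0.0529) were not called. With those cuts the goblet levels of all 8 members before TMM scaling were lower in every library with the knockout label than in every control. With the main cuts, the median enterocyte marker level in goblet cells was also lower in every library with the knockout label. How much of the goblet differences comes from enterocyte RNA in the goblet sums was not tested.

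The remaining classes had no member called by edgeR. In tuft cells 0.153% of 5236 RNAs were called, in enteroendocrine cells 1.13% of 8158, in progenitors 0% of 3523 and in Paneth cells 0.339% of 295. At an unadjusted p under 0.05 there were 332, 1019, 218 and 22 RNAs, and DESeq2 called 16, 98, 10 and 8. All 8 members were tested in tuft and enteroendocrine cells, 5 in progenitors and only Anpep in Paneth cells. In enteroendocrine cells Mme had a log2 difference of -1.24 (SE 0.356, edgeR adjusted p = 0.221), and DESeq2 called it lower (adjusted p = 0.0088). The SE of the other members there was between 0.188 and 0.571, and in tuft cells between 0.431 and 0.956.

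Over the 30 sums of 5 bins and 6 libraries, likeness was measured as Pearson's correlation of log2(CPM + 1) with 4538 genes of at least 20 CPM on average, as a description, since the sums share libraries and bins. Mep1a stood apart, with correlations between 0.11 (Mep1b) and 0.35 (Xpnpep2) with the other members, and its nearest genes were Fam151a (0.845), Plb1 (0.804, an intestinal phospholipase) and Rdh9 (0.799). Enpep was nearest to Scin (0.995), Sfxn1 (0.994) and Sis (0.994), the last being sucrase-isomaltase, a brush border disaccharidase. Mep1b was nearest to Xpnpep1 (0.978), Acsl5 and Upp1, Anpep to Apol10a (0.986), Clic5 and Iqgap2, and Dpp4 to Clec2h (0.989), Pls1 (fimbrin of the brush border) and Nudt5. Ace was nearest to Slc28a1 (0.969), Sord and Pnn, Xpnpep2 to Mpp1 (0.984), Cyp4f14 and Slc35g1, and genes near Mme included Asah2 (0.951) and Anks4b (0.943). Among pairs of members the correlation was highest for Enpep and Xpnpep2 (0.95) and lowest for Mep1b and Mme (0.02).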

How the data were processed

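UMI counts per RNA and barcode were deposited by the authors for each library. The labels name mm10, Cell Ranger and Seurat and a Chromium 5′ kit, the matrix headers name cellranger 6.1.2, and the methods name a 3′ kit and a human reference, a conflict that was not resolved here. One library stands for 1 animal. Barcodes with at least 200 genes were gated by the share of UMIs on marker lists (for enterocytes at least 1% and 3 markers), with cuts set after the marker shares, but not the members, were seen. Of the enterocytes 5.36% lay near the cut. Barcodes that met 2 classes (230) were left out, and no doublet caller was run. The members and the related lists were chosen with earlier results of these data known. Named genes were the members, Elavl1, up to 2 called genes per direction of each list with the largest log2 difference (regional markers in full where a result needed them), and the 3 genes most like each member, some of which are not reported here.

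Counts were summed per library and class, filtered with filterByExpr (minimum count 10, minimum total 15), scaled by TMM and tested with the edgeR quasi-likelihood test (edgeR 4.0.16, R 4.3.3), two-sided, with Benjamini-Hochberg adjustment over all RNAs tested and a threshold of 0.05. DESeq2 1.42.0, no TMM scaling, no filter, each library left out, a replicate block, stricter barcode filters, doubled cuts, thinning and other position scores were alternatives. Bins taken alone, each label alone, sums without mitochondrially encoded RNAs and bin 4 against bin 1 were added after seeing the data. On simulated data, 197 of 200 RNAs changed by 1 log2 unit were recovered in enterocytes among 13267 tested and 194 of 200 in goblet cells among 8750. There were 12 and 10 false calls. Smaller changes, such as those of the members in enterocytes, were not simulated, so these rates do not apply to them. The p-values of the label fits rest on the spread between 3 animals per label. In all edgeR fits the variance of each RNA was also drawn towards a value shared over all RNAs tested. Very small p-values therefore rest in part on that shared value. The SE of an edgeR fit is the absolute log2 difference divided by the square root of the quasi-likelihood F. Those of the position and interaction fits rest on how the bin differences within libraries vary between animals. The position fit held no term for label by bin, so a tip-to-base difference that differed between the labels, as for Mep1a, widened its SE. Poisson intervals cover counting error only.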

Additional observations from a re-analysis of the deposited data

Results flagged for a closer look

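For 6 members the difference between bin 5 and bin 1 of the villus position itself differed between the labels by the edgeR interaction test, which called 23% of the 11390 RNAs tested. The interaction, given as the value in the libraries labelled IE-HuR-/- minus that in the controls on the log2 scale, was -0.9628 for Mep1a, -0.7325 for Xpnpep2 and -0.4113 for Enpep, and 0.7265 for Ace, 0.4661 for Mme and 0.177 for Dpp4. The Dpp4 value lost its call under 7 of 16 alternatives. In bin 1 the summed lower-villus markers had a median share of 0.399% to 0.506% of a cell's UMIs in the control libraries and of 2.12% to 2.45% in the others, and the part of this difference in the interaction was not tested.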

How the results depend on the processing

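In enterocytes the number of members called stayed 6 when any 1 library was left out, with 6724 to 7354 RNAs called in all. Without TMM scaling Enpep was at -0.0897, and 2063 RNAs were called higher and 6031 lower (25.5% higher against 46.7%). Bins 1 to 4 taken alone called 4473, 3846, 4109 and 4668 RNAs, and bin 5 alone gave -0.4056 for Mep1a, -0.1491 for Enpep, 0.3173 for Ace, -0.06531 for Xpnpep2 and 0.02787 for Mme. Over position, 6 to 7 members and 8771 to 8846 RNAs were called with 1 library left out. Mme was at -0.2294 without TMM scaling, where 29.0% of calls were higher against 47.1%, and at -0.0001079 in the control libraries alone. The Mme call was also lost without each of the IE-HuR-/- replicates 1, 2 and 3 (0.2042, 0.1909 and 0.1681). Tip markers alone gave 0.008843 for Mep1b, 0.3562 for Dpp4 and 0.3275 for Ace. In the interaction, 5 to 7 members and 1990 to 2387 RNAs were called with 1 library left out, DESeq2 called 1295 RNAs, and without TMM scaling 28.5% of calls were higher against 39.0%.

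In goblet cells 2 to 5 members and 1651 to 2177 RNAs were called with 1 library left out. Without TMM scaling 26.5% of goblet calls were higher against 55.3%, and doubled cuts gave -0.228 for Mep1b, -0.3336 for Dpp4 and -0.4218 for Xpnpep2. In tuft cells DESeq2 called 16 RNAs, no filter 83, and leaving out 1 library 1 to 43 with 0 to 1 members. In enteroendocrine cells DESeq2 and no filter each called 1 member, leaving out 1 library 0 to 1, and no filter called 402 RNAs, doubled cuts 43 and leaving out 1 library 12 to 195. In progenitors DESeq2 called 10 RNAs, no filter 44, doubled cuts 1, the replicate block 7 and leaving out 1 library 1 to 5, with 0 members. In Paneth cells DESeq2 called 8 RNAs, no TMM scaling 0, no filter 2, the stricter barcode filter 0, doubled cuts 36, the replicate block 2 and leaving out 1 library 0 to 12, with 0 to 1 members.

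Doubled cuts moved these mean levels, in CPM. Mep1a was at 296.4 in enterocytes. In goblet cells Mep1a was at 120.8, Mep1b at 258.3, Anpep at 610.8, Enpep at 228.4, Dpp4 at 199.9 and Xpnpep2 at 47.22. In tuft cells Mep1a was at 17.16, Mep1b at 56.99, Anpep at 161.9, Enpep at 72.46, Dpp4 at 49.02, Ace at 27.53, Xpnpep2 at 11.05 and Mme at 46.46. In T or NK cells Mep1b was at 76.79, Anpep at 194.6, Dpp4 at 93.54 and Xpnpep2 at 10.56, and in myeloid cells Mep1b at 39.13, Anpep at 127.4 and Dpp4 at 62.72. The cause of these changes was not tested.

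The main label fits did not pair libraries by replicate number. Same-numbered libraries had correlations of -0.0253, -0.0926 and -0.0262 in their deviations from the group means. With 3 libraries per label these values cannot show whether such libraries were paired. With the replicate block 6 members and 7442 RNAs were called in enterocytes and 4 members and 2385 RNAs in goblet cells. The tuft, progenitor and Paneth sums held few cells.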
